A study of Mus musculus with 36 samples.

Results

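The comparison described here set 4 mouse pancreatic tumours treated with TP-0903+anti-PD1 against 5 Vehicle tumours, 9 of the 36 tumours in the series. The treated arm held every tumour that carried that treatment label. The Vehicle arm had 6 tumours, and the one titled A799 was left out. The Vehicle members were thus chosen by measured values, the lung transcripts of that tumour: the lung chemokine gene Cxcl15 stood at 12336 scaled counts in A799 against 9.95 to 40.1 in the other Vehicle tumours. The lysosomal gene Lamp3, abundant in alveolar cells, stood at 2254 there against 7.39 to 20.4. These lung genes are given as values with no test. All 750 endogenous genes of the panel were described and 680 were tested.

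All tumours grew from the KPfC BMF-A3 line, a mouse pancreatic tumour line implanted in the pancreas of wild-type C57BL/6 mice. One line therefore supplied the tumour cells of every animal, in hosts with an intact immune system. The ages and sexes of the mice were not given in the sources used here. Treatment started on day 10 after implantation, and the mice were killed on day 35. The treated arm received TP-0903, an oral kinase inhibitor directed at Axl, at 25 mg/kg daily, and a PD1-blocking antibody by injection at 5 mg/kg 2 times a week. Neither arm received gemcitabine, the third agent of the study. What the Vehicle mice were given in place of the antibody was not stated in the labels.

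Axl belongs to the TAM family of receptor tyrosine kinases with Tyro3 and Mertk, which bind the ligands Gas6 and protein S, help clear dying cells and restrain inflammatory signalling in macrophages and dendritic cells. PD1 is an inhibitory receptor of activated T cells, and its ligands are displayed by tumour and myeloid cells. Neutrophils, which are often abundant in pancreatic tumours, load their granules in the bone marrow in a fixed order: the azurophil enzymes myeloperoxidase, elastase and cathepsin G at the promyelocyte stage, then lactoferrin and the cathelicidin. The alarmin S100a8 stays abundant in mature neutrophils and monocytes.

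RNA was counted by the nCounter system, in which barcoded probes bind RNA without amplification, and values below are scaled counts: raw counts divided by a lane factor from 20 housekeeping genes. The treated tumours are numbered 1 to 4 and the Vehicle tumours 1, 2, 4, 5 and 6, in accession order, and replicate 3 of Vehicle is A799. Total raw counts ran from 115973 to 341334 in treated lanes and from 359506 to 490750 in Vehicle lanes, so the arms did not overlap (ratio of means 0.551, exact two-sided permutation p = 0.0159, adjusted 0.0397, the smallest p the design allows being 0.0159). Housekeeping counts divided by positive-control counts gave 0.314 ± 0.0366 (SD, n = 4) against 0.386 ± 0.0594 (n = 5; exact permutation p = 0.0794). The total of 115973, the lowest of the 36 lanes, was that of treated replicate 4, whose lane factor was 0.416. A raw count there is thus worth more than 1 scaled count, and gaps below of under 1 scaled count are smaller than that. Genes above lane background numbered 539 to 590 and 476 to 600. All 5 Vehicle lanes lay on cartridge 1, treated replicate 1 on cartridge 2 and treated replicates 2, 3 and 4 on cartridge 3. Cartridge and arm therefore cannot be told apart from these 9 lanes alone. Besides the treated arm, only Gemcitabine spanned cartridges, with replicates 1 and 2 on cartridge 1 and 3 and 4 on cartridge 2. A fit with cartridge as a block therefore set treated replicate 1 against Vehicle, corrected by those Gemcitabine lanes. Treated replicates 2, 3 and 4 did not inform its folds.

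Neutrophil granule and alarmin genes led the comparison, and the transferrin receptor gene Tfrc led in the other direction. edgeR's quasi-likelihood test over 680 genes called 0 at an adjusted p under 0.05 (0.0% of those tested higher and 0.0% lower). At an unadjusted p under 0.05, 62 genes (9.12%) passed, 48 higher (7.06%) and 14 lower (2.06%). The smallest adjusted p was 0.0721, for Camp. DESeq2 called 8 genes, 7 higher (1.03%: Camp, S100a8, Mpo, Elane, Cma1, Prg2 and Ctsg) and 1 lower (0.147%: Tfrc), and limma called 0 (52 unadjusted, 7.65%). The median log2 fold of all genes was 0.14 with 442 of 680 above 0 (65.0%), and 0.00, -0.16 and 0.30 with trimmed-mean scaling, positive controls only and the cartridge block. Every list below reads against that median.

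**Figure D1:**
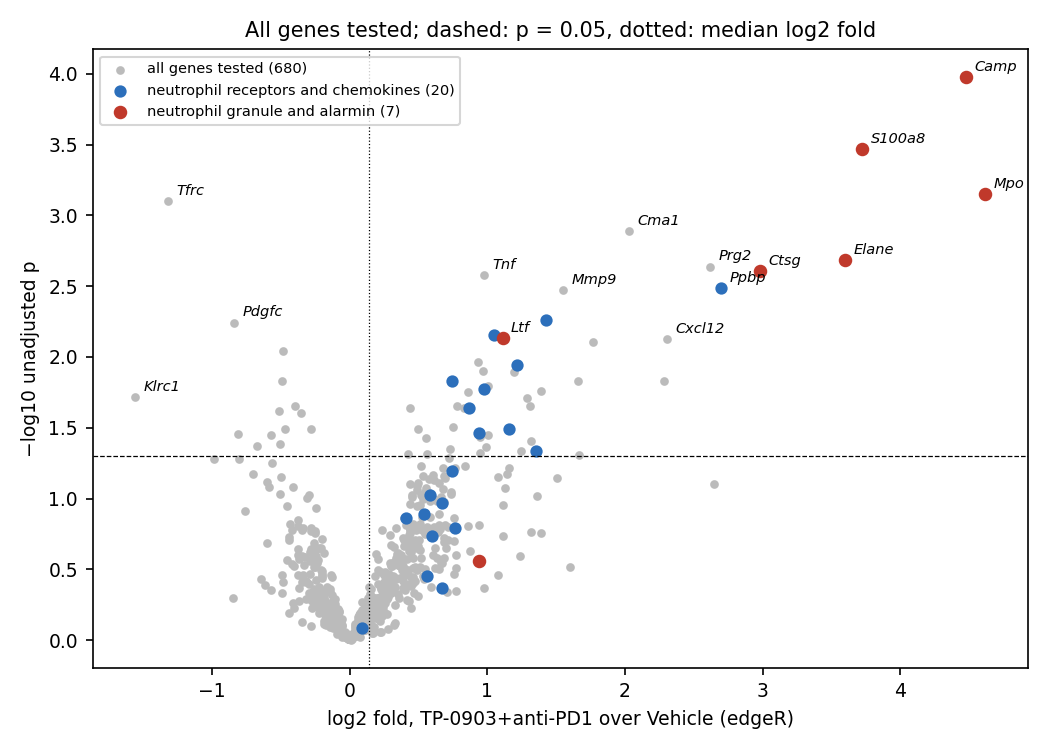
Each point is 1 of 680 genes, with the edgeR log2 fold of TP-0903+anti-PD1 over Vehicle on the horizontal axis and −log10 of the unadjusted p on the vertical axis. Red points are the 7 neutrophil granule and alarmin genes, with Camp topmost at 4.48, and blue points the 20 neutrophil receptor and chemokine genes, while Tfrc, at -1.32, has the smallest p of the genes with a negative fold.

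The antimicrobial cathelicidin gene Camp stood at 106, 110.2, 836 and 72.2 scaled counts in treated tumours 1 to 4 and at 10.7, 10.5, 14.2, 7.39 and 20.4 in the Vehicle tumours. The arms did not overlap, and treated tumour 3 was far above the other 3. Its log2 fold was 4.48 ± 1.00 (edgeR, n = 4 and 5, adjusted p = 0.0721), and 2.93 ± 0.94 without treated tumour 3. DESeq2 called it at an adjusted p of 0.000368, and an edgeR fit of these 9 tumours alone at 0.0284. Camp exceeded lane background in 1 of the 5 Vehicle lanes, where thresholds on the scaled counts ran from 14.4 to 20.8. In bulk RNA, a change in the number of cells of a type cannot be told apart from a change in RNA per cell.

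S100a8, which encodes a calcium-binding alarmin, stood at 2497, 1452, 20616 and 2598 scaled counts in treated tumours against 167, 533, 419, 1141 and 309 in Vehicle tumours. Every treated tumour exceeded every Vehicle tumour, by 311 scaled counts at the closest pair. The log2 fold was 3.72 ± 0.92 (edgeR adjusted p = 0.115), and 2.09 ± 0.84 without treated tumour 3. The myeloperoxidase gene Mpo stood at 74.9, 103, 686 and 55.3 against 12.2, 9.20, 7.90, 7.39 and 10.2. No Vehicle lane exceeded its background for Mpo, so its mean fold in the 4 treated tumours is best read as at least 7.70-fold higher. The fitted log2 fold was 4.62 ± 1.22 (edgeR adjusted p = 0.135), and 3.06 ± 1.18 without treated tumour 3. Treated tumours 1, 2 and 4 averaged 8.29 times the Vehicle mean, which lay at background, and treated tumour 3 stood at 73.1 times.

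The neutrophil elastase gene Elane stood at 53.7, 62.6, 433 and 31.3 against 10.7, 7.22, 11.8, 13.9 and 17.0, again without overlap and with every Vehicle lane at background. Elane was at least 4.83-fold higher on average (fitted log2 fold 3.60 ± 1.07, edgeR adjusted p = 0.2). Without treated tumour 3 its fitted log2 fold was 2.05 ± 1.06. With cartridge as a block, a fit that rested on treated tumour 1, the log2 folds were 7.79 ± 2.20 for Mpo and 6.46 ± 1.97 for Elane. The cathepsin G gene Ctsg stood at 35.3, 27.8, 234 and 14.4 against 6.32 to 15.7, so treated tumour 4 lay within the Vehicle range. Ctsg had a log2 fold of 2.98 ± 0.90 (at least 2.51-fold on average), and 1.41 ± 0.91 without treated tumour 3. The lactoferrin gene Ltf, at background in every Vehicle lane, was at least 1.14-fold higher (fitted log2 fold 1.11 ± 0.39). The siderophore-binding lipocalin gene Lcn2 had a log2 fold of 0.94 ± 0.84, and both genes overlapped between arms. Lcn2, which epithelial cells also make, ran from 399 to 2353 in treated and from 207 to 1291 in Vehicle tumours.

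Of 12 granule and alarmin genes listed, with earlier results of these data known, 7 were on the panel and tested. The counts that follow describe the list and are not a test of it. All 7 had a positive log2 fold, 6 at an unadjusted p under 0.05 against 7.06% of all genes tested, and 4 did not overlap between arms against 2.5% of all genes. The median log2 fold was 3.60 beside 0.14 over all genes, and 2.27 with the 4 genes at background in every Vehicle lane set to their bounds. Treated tumour 3 was the highest of its arm for all 7, a place it held for 28.8% of all genes tested. Without it the list's median was 2.05, and it lay between 2.05 and 4.74 over the alternatives run. Summed over the list, treated tumours held 2179 to 25203 scaled counts and Vehicle tumours 428 to 2487, so the summed levels did overlap. The left-out Vehicle tumour A799 held 2721, above every Vehicle tumour compared and above the lowest treated tumour. With A799 kept, the log2 fold was 3.65 ± 0.94 for Camp and 3.36 ± 0.85 for S100a8.

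**Figure D2:**
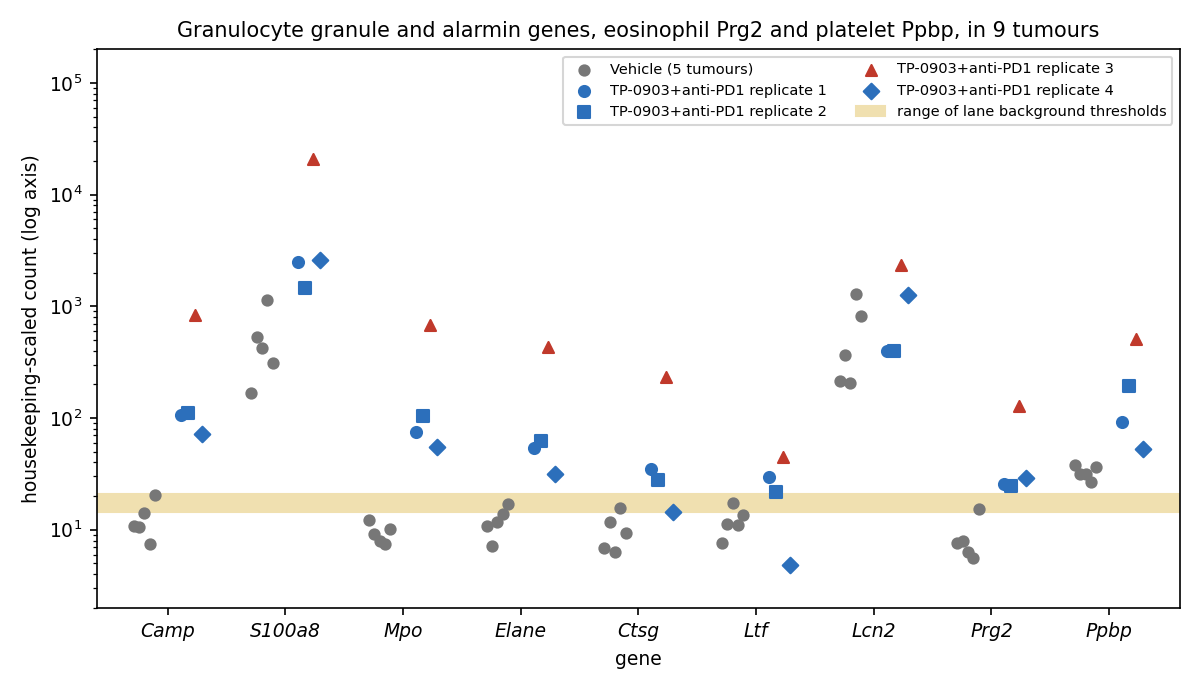
Housekeeping-scaled counts (log axis) of the 7 granule and alarmin genes, the eosinophil granule gene Prg2 and the platelet chemokine gene Ppbp in 5 Vehicle tumours (grey) and 4 TP-0903+anti-PD1 tumours (blue, with replicate 3 in red), and the band spans the lane background thresholds. Replicate 3 is highest for all 9 genes, and the other 3 treated tumours also lie above every Vehicle tumour for Camp, S100a8, Mpo, Elane, Prg2 and Ppbp.

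Because the leading genes were high in the same tumours, the stretch around the transcription start of the 4 that did not overlap is printed here, 250 bases before the start to 50 after, read 5′ to 3′ on the gene's strand (RefSeq, build GRCm38.p6). Capitals mark matches to GAGGAAG, a core bound by the myeloid factor PU.1, on either strand, where the reverse match reads CTTCCTC. A match to TTGCNNAA, a core bound by C/EBP factors, was searched in the same way and none lay in these 4 windows. Camp lies at chr9:109849407-109849706 (minus strand), Elane at chr10:79886062-79886361 (plus), Mpo at chr11:87793534-87793833 (plus) and S100a8 at chr3:90668821-90669120 (plus).
Camp: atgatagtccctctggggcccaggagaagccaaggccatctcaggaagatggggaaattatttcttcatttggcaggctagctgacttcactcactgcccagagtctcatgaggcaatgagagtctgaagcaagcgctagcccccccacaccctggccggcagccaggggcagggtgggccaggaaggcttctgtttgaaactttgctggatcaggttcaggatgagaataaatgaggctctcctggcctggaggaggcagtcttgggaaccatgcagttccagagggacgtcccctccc
Elane: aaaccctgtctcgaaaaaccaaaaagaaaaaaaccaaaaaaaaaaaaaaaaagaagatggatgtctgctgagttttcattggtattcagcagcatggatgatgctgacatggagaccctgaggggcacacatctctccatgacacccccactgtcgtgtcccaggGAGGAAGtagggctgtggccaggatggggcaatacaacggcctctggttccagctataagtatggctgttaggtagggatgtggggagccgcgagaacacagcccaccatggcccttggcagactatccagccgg
Mpo: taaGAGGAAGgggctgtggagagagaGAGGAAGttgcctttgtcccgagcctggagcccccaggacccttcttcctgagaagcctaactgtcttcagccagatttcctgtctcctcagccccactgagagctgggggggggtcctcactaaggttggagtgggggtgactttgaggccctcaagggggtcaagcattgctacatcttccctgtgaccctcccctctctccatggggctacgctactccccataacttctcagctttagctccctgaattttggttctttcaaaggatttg
S100a8: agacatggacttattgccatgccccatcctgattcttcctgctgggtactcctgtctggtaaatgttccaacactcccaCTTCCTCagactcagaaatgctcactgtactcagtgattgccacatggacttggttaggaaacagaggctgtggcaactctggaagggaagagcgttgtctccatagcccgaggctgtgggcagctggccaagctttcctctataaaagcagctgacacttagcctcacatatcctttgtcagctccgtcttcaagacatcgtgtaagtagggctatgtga
GAGGAAG occurred in 5 of the 7 granule gene windows (Elane, Mpo, S100a8, Ctsg and Lcn2) and TTGCNNAA in 2 (Ltf and Lcn2). Over 32851 windows of the same length the shares were 13.6% and 10.8%, and over 612 windows of tested panel genes 17.6% and 12.9%. The Camp window held neither. A match describes letters in a window and says nothing on binding in these tumours.

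Neutrophil receptors and signalling genes had a lower median log2 fold than the granule genes, 0.75, and their ranges overlapped. All 13 tested were positive, against 65.0% of all genes, and 7 had an unadjusted p under 0.05, against 7.06%. Complete separation of the arms occurred for 0 of the 13, against 2.5% of all genes. The chemokine receptor gene Cxcr2, which guides neutrophils to CXC chemokines, stood at 32.5, 36.7, 94.1 and 74.6 against 21.4, 40.7, 22.9, 21.3 and 35.7 (log2 fold 1.05 ± 0.36, edgeR adjusted p = 0.313). Treated tumours 3 and 4 lay above the Vehicle range and tumours 1 and 2 within it. The integrin gene Itgam, the alpha chain of Mac-1 on neutrophils and macrophages, stood at 455, 142, 465 and 207 against 106 to 191 (log2 fold 1.22 ± 0.45), with treated tumour 2 inside that range. The oxidase gene Cybb had 0.75 ± 0.29 and the integrin beta chain gene Itgb2 0.98 ± 0.39. Of the 13 receptors, 10 were highest in treated tumour 3, and the list's median was 0.54 without that tumour.

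The chemokines that draw neutrophils, with growth factor genes, gave 7 positive log2 folds of 7 with a median of 0.77. Of these, 4 separated the arms against 2.5% of all genes, 2 of them by under 1 scaled count. The chemokine gene Cxcl3 stood at 36.7, 55.6, 47.7 and 43.3 in treated and at 9.18, 25.6, 25.3, 17.6 and 7.64 in Vehicle tumours. No treated tumour stood out and the closest pair lay 11.1 scaled counts apart (log2 fold 1.43 ± 0.48, edgeR adjusted p = 0.3). Without treated tumour 3 the log2 fold of Cxcl3 was 1.41 ± 0.52. Cxcl2, a close relative, stood at 43.8, 76.5, 72.9 and 31.3 against 17.6 to 34.0, with tumour 4 inside the Vehicle range (1.16 ± 0.52). Cxcl1 at 24.1 to 41.0 against 13.9 to 23.7 and Csf2, the GM-CSF gene, at 26.5 to 41.0 against 8.54 to 26.0 were those 2.

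Ppbp, a CXC chemokine gene of platelets, stood at 91.9, 195, 513 and 52.9 against 26.8 to 38.3 (log2 fold 2.70 ± 0.84, edgeR adjusted p = 0.209). The arms did not overlap, and tumour 3 was highest. The platelet integrin gene Itga2b followed the same order, with 168 in treated tumour 3, 12 to 28.8 in the other treated tumours and 7.11 to 15.3 in Vehicle. Ppbp stood at 442 and Itga2b at 89.6 in A799, and with that tumour kept in the Vehicle arm Ppbp had a log2 fold of 1.09 ± 0.89. Over the 4 tested platelet and red cell markers, Tfrc among them, the median log2 fold was 1.34, and 0.51 without treated tumour 3. With Itga2b at its bound that median was 0.62. Ppbp and Itga2b were thus high beside the granule genes in treated tumour 3, and their part in the granule result was not tested. Of the 20 tested B cell and plasma cell markers, 14 were also highest in treated tumour 3 within its arm. In that tumour the B cell list lay 0.92 log2 units above the Vehicle mean, by its median, and the lymph node or spleen list 0.66.

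Mast cell and eosinophil genes were carried by few members. The eosinophil granule gene Prg2 stood at 25.4, 24.8, 129 and 28.9 against 5.54 to 15.3, without overlap and with every Vehicle lane at background (at least 2.30-fold, fitted log2 fold 2.62 ± 0.79, edgeR adjusted p = 0.2). The mast cell chymase gene Cma1 stood at 48.1, 8.94, 38.4 and 197 against 8.69 to 32.3 (log2 fold 2.03 ± 0.57, edgeR adjusted p = 0.175). Here treated tumour 4 was the highest and tumour 2 lay near the bottom of the Vehicle range, and without tumour 4 the log2 fold was 0.87. The Fc receptor chain gene Fcer1g had 0.78 ± 0.32 and the interleukin 33 receptor gene Il1rl1 1.01 ± 0.46, while the eosinophil receptor gene Il5ra had -0.99 ± 0.49. The mast cell tryptase gene Tpsab1 stood at 19.2 to 25.4 against 11.8 to 20.3 and the receptor gene Kit at 24.1 to 43.8 against 25.3 to 41.6. Of 11 members tested, 9 were positive with a median of 0.56.

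Monocyte and macrophage genes lay above the median of all genes by less than the granule genes did. Of 11 monocyte chemokine genes 10 were positive (median log2 fold 0.69), against 65.0% of all genes, and 4 had an unadjusted p under 0.05, against 7.06%. That median was 0.33 with positive controls only and 0.34 with the cartridge block. Ccl7 stood at 93.3, 41.7, 63.6 and 64.9 against 13.9 to 34.8, without overlap (log2 fold 1.29 ± 0.52, edgeR adjusted p = 0.412). Ccl2, the main monocyte attractant, stood at 291, 105, 160.3 and 180.4 against 45.0 to 114 (1.32 ± 0.61), with treated tumour 2 inside the Vehicle range. Ccl8 reached 1397 in treated tumour 4 against 66.5 to 278 in the rest of its arm (1.67 ± 0.81). The macrophage list had 23 of 25 members positive with a median of 0.47. It had 1 unadjusted call in 25, no larger a share than the 7.06% over all genes, the lysozyme gene Lyz2 (7197, 2945, 5323 and 4717 against 2092 to 3053). The lectin receptor gene Clec4n stood at 159 to 236 against 83.2 to 146, without overlap (0.84 ± 0.43). Suppressive myeloid factors had 5 of 11 positive with a median of -0.03. Their most abundant member, the osteopontin gene Spp1, which tumour cells also make, stood at 14188 to 23419 against 21103 to 39951 (-0.76 ± 0.48).

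The inflammatory cytokine gene Tnf stood at 55.1, 39.7, 17.2 and 40.9 against 19.9, 23, 16.6, 22.2 and 15.3 (log2 fold 0.97 ± 0.30, edgeR adjusted p = 0.2). In contrast to the granule genes, treated tumour 3 was the lowest of its arm and lay inside the Vehicle range, and without it the log2 fold was 1.22 ± 0.29 (adjusted p = 0.141). The inflammasome protease gene Casp1 had 1.19 ± 0.45 and stood at 27.8 to 103 against 16.8 to 41.4. The kinase gene Ikbkb, which activates NF-kB, had -0.49 ± 0.17. Of 26 NF-kB and cytokine genes 19 were positive with a median of 0.26, and 3 higher and 2 lower passed at an unadjusted p under 0.05, against 7.06% and 2.06% of all genes.

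**Figure D3:**
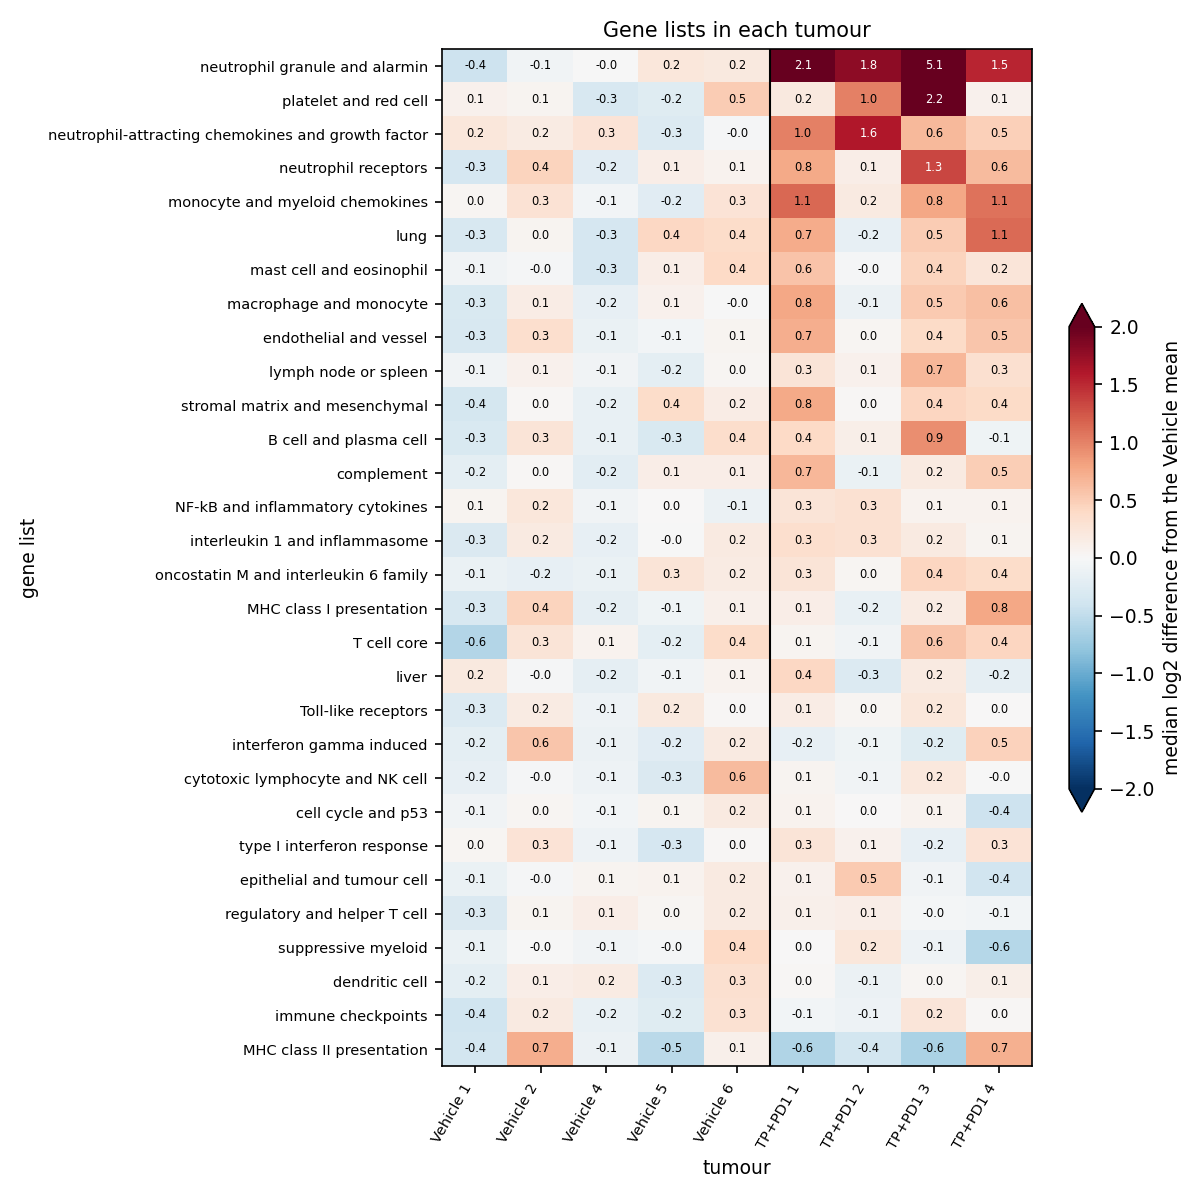
Median log2 difference from the Vehicle mean over the tested members of each gene list (rows, with at least 3 tested members) in each tumour (columns, with TP+PD1 standing for TP-0903+anti-PD1). The granule list is 1.5 to 5.1 in the treated tumours and highest in replicate 3, while the MHC class II list is 0.7 in treated replicate 4 and in Vehicle replicate 2 and at most 0.1 in the others.

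Vessel and matrix genes were mostly positive as well, as were 65.0% of all genes. At an unadjusted edgeR p under 0.05, 2 of 18 endothelial genes were higher and 0 lower. Of 24 stromal genes 3 were higher and 1 lower, against 7.06% and 2.06% of all genes. The chemokine gene Cxcl12, made by fibroblasts and endothelium, stood at 363, 151, 458 and 449.8 against 44.4, 86.0, 61.6, 110.0 and 56.9 (log2 fold 2.31 ± 0.80, edgeR adjusted p = 0.313). The arms did not overlap, and a fit of these 9 tumours alone called it (adjusted p = 0.0281). In A799 it stood at 895, and 1 TP-0903 tumour reached 3236. Mmp9, a gelatinase gene of neutrophils, macrophages and stroma, stood at 161, 199, 125 and 62.5 against 24 to 79.0 (1.55 ± 0.49, edgeR adjusted p = 0.209), and 1.60 ± 0.53 without treated tumour 3. Endoglin, an endothelial co-receptor encoded by Eng, had 0.86 ± 0.34, and the collagen-binding integrin gene Itga1 0.55 ± 0.25. The endothelial list had 17 of 18 positive with a median of 0.47, which was -0.83 with A799 kept, and the stromal list had 19 of 24 positive with a median of 0.43 (0.12 with positive controls only and with A799 kept). Lung list genes, some shared with endothelium, lay at 0.74, -0.16, 0.50 and 1.13 in treated tumours 1 to 4, where the endothelial list lay at 0.72, 0.03, 0.39 and 0.55. Of 7 lung list genes 6 were positive with a median of 0.61, and their summed level was 227 to 3809 in treated, 168 to 1883 in Vehicle tumours and 23081 in A799. The defining genes were low in both arms: Cxcl15 stood at 10.9 to 50.5 in treated tumours and Lamp3 at 4.81 to 14.9. The urokinase gene Plau separated the arms at 135 to 205 against 79.6 to 116 (0.75 ± 0.33).

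The epithelial genes expected of a carcinoma were abundant in both arms. The adhesion gene Epcam stood at 1102 to 3555 in treated and 836 to 2646 in Vehicle tumours, and the cadherin gene Cdh1 at 1159 to 3744 against 1909 to 3263. Both were named after their values had been seen. Of 20 epithelial and tumour cell genes 12 were positive with a median of 0.05. The pancreatic acinar enzyme gene Pla2g1b stood at 6.95 to 50.3 against 4.74 to 22.2.

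Axl itself stood at 636, 387, 717 and 669 in treated tumours and at 432, 632, 597, 747 and 869.6 in Vehicle tumours (log2 fold -0.12 ± 0.29, edgeR adjusted p = 0.932). The related receptor gene Mertk stood at 49.7 to 113 against 51.3 to 130.3 (0.03 ± 0.33). Both overlapped widely, and RNA counts do not measure kinase inhibition. Tyro3, Gas6 and Pros1 were not among the 750 endogenous genes of the panel. The PD1 gene Pdcd1 lay near background at 7.95 to 19.2 against 8.42 to 23.6 (-0.13 ± 0.38). The ligand gene Cd274, which encodes PD-L1, stood at 43.8, 105, 60.9 and 91.4 against 33.7 to 65.6 (0.52 ± 0.26, edgeR adjusted p = 0.587), with treated tumours 2 and 4 above the Vehicle range. The second ligand gene, Pdcd1lg2, had 0.12 ± 0.42. Immune checkpoint genes had 8 of 17 positive with a median of -0.09. Their smallest p was that of the adhesion gene Ceacam1, shared with epithelial cells, at 257 to 557 against 66.6 to 313 (0.94 ± 0.42).

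T cell genes were low in both arms. Cd4 stood at 7.95 to 17.2 against 8.32 to 26.9 (log2 fold -0.27 ± 0.38, edgeR adjusted p = 0.863) and Ifng at 9.62 to 18.5 against 4.62 to 16.1 (0.17 ± 0.42). Cd8a at 5.65 to 13.2 against 5.36 to 17.0, Foxp3 at 4.97 to 13.2 against 7.90 to 17.0 and the granzyme gene Gzmb at 7.22 to 21.2 against 7.39 to 15.3 did not pass the filter on low counts. With no filter their log2 folds were 0.26 ± 0.45, -0.29 ± 0.35 and 0.06 ± 0.40, in that order. Tested T cell core genes had 11 of 15 positive with a median of 0.18, and cytotoxic and NK cell genes 13 of 22 with a median of 0.07. The NK receptor gene Klrc1 had -1.56 ± 0.63, which rested on Vehicle tumour 6 at 270.0 against 12 to 31.4 in the other Vehicle tumours, and it was 0.17 ± 0.40 without that tumour. The regulatory and helper list had 5 of 11 positive with a median of -0.01. B cell genes had 17 of 20 positive with a median of 0.40, led by the tetraspanin gene Cd37 at 65.0, 21.9, 131 and 67.3 against 19.0 to 38.1 (1.31 ± 0.54). That median was 0.12 without treated tumour 3, -0.05 with A799 kept and 1.57 with the cartridge block. Of the B cell surface genes, Ms4a1 stood at 32.5 to 53 against 14.8 to 30.6, without overlap (0.77 ± 0.74), and Cd79a at 2.41 to 19.9 against 8.54 to 20.4, with overlap.

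Among interferon gamma targets and antigen presentation genes, single tumours of both arms stood high. The interferon gamma target Cxcl9, a T cell attractant, stood at 15.5, 9.93, 11.9 and 402 in treated and at 13.8, 164, 13.4, 10.2 and 39.1 in Vehicle tumours. Treated tumour 4 and Vehicle tumour 2 held the highest value of their arms, and the log2 fold was 1.12 ± 0.82. The same pair was highest for Cxcl10 (156 and 69.6), the guanylate-binding protein gene Gbp5 (111 and 49.3), the peptide transporter gene Tap1 (154 and 103), the immunoproteasome gene Psmb8 (368 and 200.3) and the MHC class II gene H2-Ab1 (924 and 1186). Of the interferon gamma list 12 of 19 were positive with a median of 0.07, of MHC class I genes 16 of 17 with 0.22 and of MHC class II genes 3 of 10 with -0.22. Of type I interferon genes 16 of 29 were positive with a median of 0.07, and of dendritic cell genes 7 of 17 with -0.07. The type I interferon list lay at 0.27 in treated tumour 1, 0.28 in treated tumour 4 and 0.27 in Vehicle tumour 2. Complement genes, which myeloid, stromal and liver cells make, had 23 of 29 positive with a median of 0.32, and the properdin gene Cfp stood at 122 to 283 against 91.7 to 141 (0.83 ± 0.35). The MHC class II median ran from -0.76 to 0.06 over the alternatives.

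Of the genes lower in the treated tumours, the one with the smallest p was Tfrc. Tfrc encodes the receptor through which cells take up transferrin-bound iron, abundant in dividing cells and red cell precursors. It stood at 165, 411, 196 and 185 against 569, 424, 547, 489.7 and 961. The arms did not overlap, but treated tumour 2 came within 12.4 scaled counts of the lowest Vehicle tumour. Its log2 fold was -1.32 ± 0.35 (edgeR adjusted p = 0.135), and -1.72 ± 0.38 without treated tumour 2, when it was called (adjusted p = 0.0202). Over the alternatives Tfrc lay between -1.72 and -1.08. Cell cycle and p53 genes, the list that also holds Tfrc, had 11 of 18 positive with a median of 0.07.

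The platelet-derived growth factor gene Pdgfc stood at 311, 317, 301 and 265 against 403, 462, 389, 892 and 527 (log2 fold -0.84 ± 0.28, edgeR adjusted p = 0.3). The 4 treated tumours lay close together and below every Vehicle tumour. In total 6 genes (0.882%) were lower in every treated tumour than in every Vehicle tumour, against 17 higher (2.5%). Beside Tfrc and Pdgfc these were the growth factor receptor gene Igf1r at 120.3 to 179.8 against 191 to 301, the lymphotoxin receptor gene Ltbr at 324 to 394 against 405 to 646, the nuclear body gene Pml at 135 to 146 against 150.1 to 236, and the acetyltransferase gene Ep300 at 249 to 279.5 against 280.4 to 351. Of the 17 higher genes, those not given above were the kinase gene Syk, the myeloid transcription factor gene Cebpb and the hepcidin gene Hamp. Cebpb stood at 532 to 556 in treated and 304 to 506 in Vehicle tumours. Igf1r, Pml, Ep300, Syk, Cebpb and Ms4a1 were named after their values had been seen. The balance held for housekeeping scaling only: the counts were 14 higher and 19 lower with trimmed-mean scaling, 15 and 21 with DESeq2 size factors, and 8 and 23 with positive controls only.

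**Figure D4:**
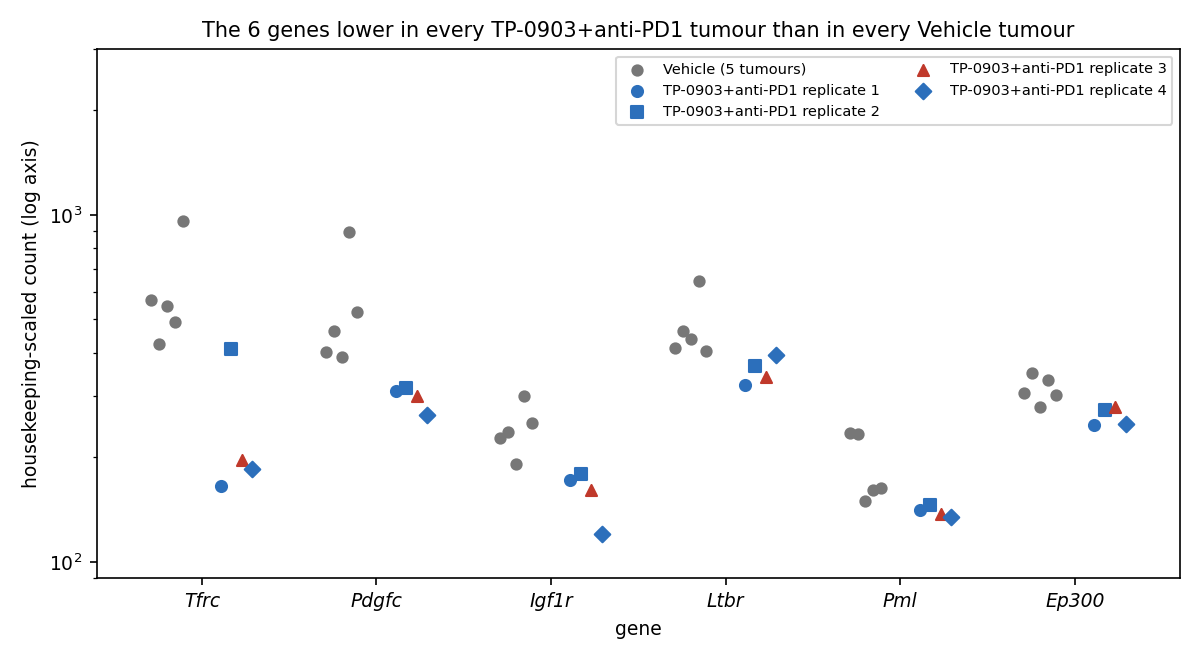
Housekeeping-scaled counts (log axis) of the 6 genes that were lower in every TP-0903+anti-PD1 tumour (blue, replicate 3 in red) than in every Vehicle tumour (grey). Tfrc spans 165 to 411 in treated and 424 to 961 in Vehicle tumours, and Ep300 separates the arms by less than 1 scaled count.

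The single-agent arms place these values. The Anti-PD1 and TP-0903 arms held 4 tumours each, and the comparisons with them share the treated tumours with the one above. All TP-0903 lanes lay on cartridge 1 and all Anti-PD1 lanes on cartridge 2. Treated tumours thus shared no cartridge with TP-0903, and only treated replicate 1 shared that of Anti-PD1. Cartridge and treatment therefore cannot be told apart in these comparisons or in the interaction below. Camp stood at 19.6 to 33.9 in Anti-PD1 tumours and at 33.7 to 92.7 in TP-0903 tumours, beside 72.2 to 836 with both agents. Camp thus overlapped between TP-0903 alone and both. S100a8 stood at 396 to 659.7 with Anti-PD1 and at 434 to 1299.8 with TP-0903. All 4 tumours given both agents, at 1452 or more, thus exceeded every tumour of either arm for S100a8. Of the 12 leading higher genes, S100a8 was the only 1 that lay above every TP-0903 tumour in this way, and 6 lay above every Anti-PD1 tumour. For Mpo the Anti-PD1 tumours lay between 12.8 and 19.9 and the TP-0903 tumours between 12.8 and 157, which overlapped the tumours given both. The highest Mpo value of the TP-0903 arm was that of replicate 3, a tumour with high liver transcripts, and its remaining tumours stood at 84.0, 85.3 and 12.8.

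Against Anti-PD1, edgeR called 0 genes higher and 0 lower (0.0% each). Unadjusted, 35 passed (5.15%), 18 of them higher (2.65%). Camp had a log2 fold of 3.37 ± 1.03 (adjusted p = 0.357), S100a8 3.63 ± 1.00 (0.345) and Mpo 3.88 ± 1.29 (0.482). Against TP-0903, 11 genes (1.62%) were higher at an unadjusted p under 0.05. Camp had 2.06 ± 0.97 (adjusted p = 0.397), S100a8 2.83 ± 0.97 (0.116) and Mpo 1.46 ± 1.15 (0.724). Ppbp stood at 140.3 to 216 with TP-0903 alone and at 38.9 to 82.2 with Anti-PD1 alone, against 52.9 to 513 with both. Tfrc stood at 246 to 499 with TP-0903 and 256 to 794 with Anti-PD1, and the log2 fold with both agents was -0.66 ± 0.36 and -1.17 ± 0.37 against them.

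**Figure D5:**
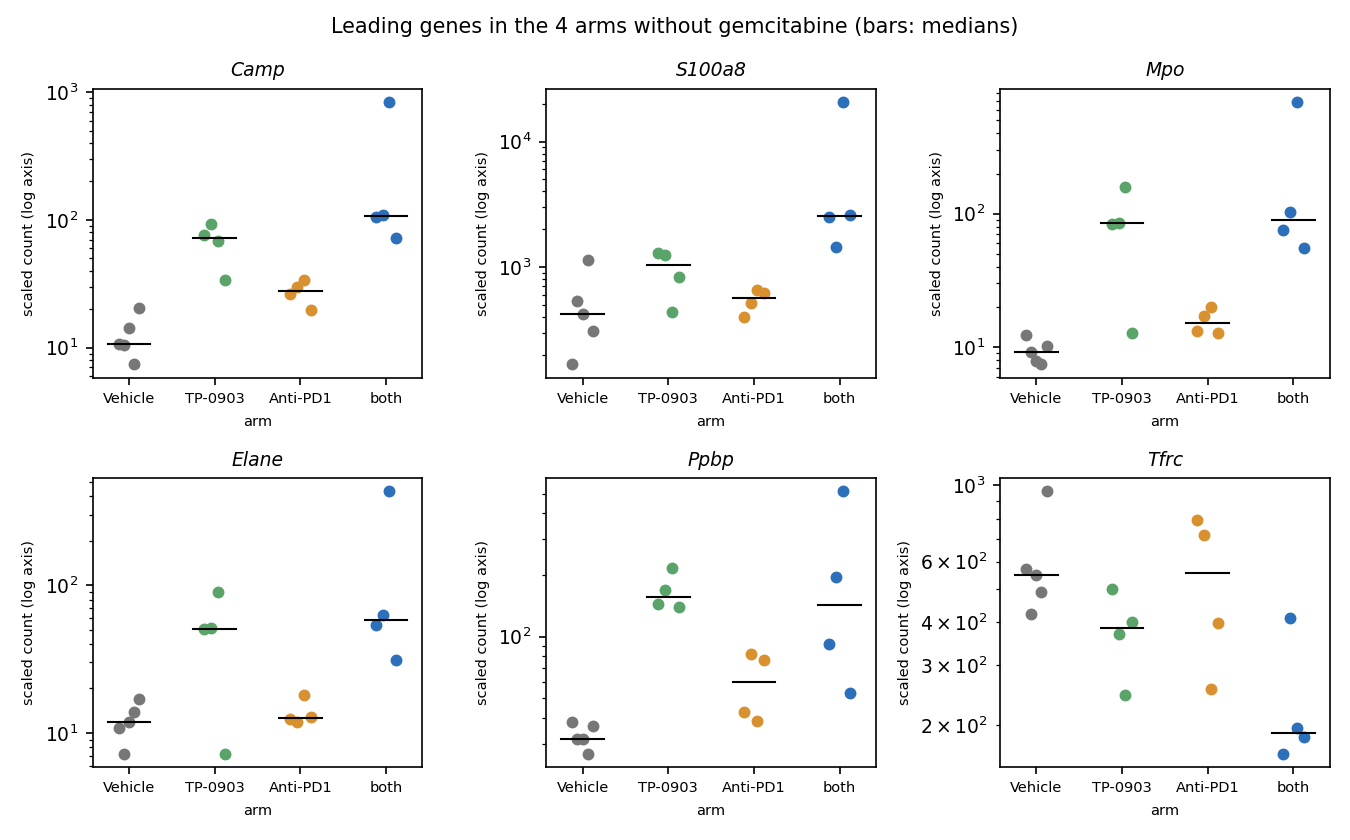
Housekeeping-scaled counts (log axis) of 6 leading genes in Vehicle (5 tumours), TP-0903, Anti-PD1 and TP-0903+anti-PD1 ("both", 4 tumours each), with bars at the medians. S100a8 is 1452 or higher in all 4 tumours given both agents and at most 1299.8 in the single-agent arms. Camp, Mpo, Elane, Ppbp and Tfrc overlap between TP-0903 alone and both.

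Against TP-0903, edgeR called 29 genes lower (4.26%) and 1 higher (0.147%), and 19 of the 29 belonged to the liver or complement lists. Without TP-0903 replicate 3, whose hepcidin gene Hamp stood at 32044 against 22.1 to 149.9 in its arm, the count was 0. The interaction of the agents, the effect of both minus the sum of their single effects, gave 24 calls, all lower (3.53%), of which 19 were liver or complement genes, and 0 without that tumour. No granule gene was called in the interaction: Camp had 0.95 ± 1.36 (edgeR adjusted p = 0.968), S100a8 2.74 ± 1.28 (0.417) and Mpo 0.73 ± 1.66 (0.968).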

How the data were processed

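The deposited table held raw probe counts per gene for 36 tumours, and all 27720 of its values equalled the deposited lane report. The series' design text speaks of normalisation to positive controls and housekeeping genes, which these counts do not carry. Per the labels, RNA was taken from tumour tissue lysates and counted with nCounter probes; the panel was the mouse PanCancer Immune Profiling set. The lane report also gave lane attributes and control probes, used for cartridge and background. Of 36 lanes, 7 carried an unexplained suffix in the report, 3 of them in the Vehicle tumours compared.

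Counts were scaled by the geometric mean of 20 housekeeping genes. Genes were tested if they exceeded the mean of 8 negative controls plus 2 SD in at least 4 lanes (680 of 750). The main test was the quasi-likelihood test of edgeR 4.0.16 in R 4.3.3, fitted over all 8 arms without A799 and with no covariate, with Benjamini-Hochberg adjustment over all genes tested at 0.05. Errors on log2 folds are standard errors, and those on means SDs. Alternatives were other scalings, filters, DESeq2 1.42.0, limma 3.58.1 on log2(scaled count + 1), the 9 tumours alone, A799 kept, TP-0903 replicate 3 left out, blocks for cartridge and for the first digit of the number in the title, and each tumour left out. The cartridge block with TP-0903 replicate 3 left out was added after seeing the data. Library measures were compared by exact two-sided permutation tests, adjusted over 5 measures. A fold against a gene at background in every Vehicle lane is given as a lower bound on the mean over all treated tumours. Each Vehicle lane was set to the higher of its value and its threshold.

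On data simulated for the first comparison (680 genes), edgeR called 25 of 100 genes changed by a log2 fold of 1, 94 of 100 changed by 2, and 8 of 480 unchanged genes. The precision is set by the spread between tumours, and every simulated gene had the same biological coefficient of variation, 0.429. The shares called therefore do not carry over to genes that spread more between tumours. Camp, at a log2 fold of 4.48 ± 1.00, was not called by edgeR in the main fit over all arms. The labels do not state that replicates came from separate animals, so p-values measure the spread between samples. No pair of lanes within the treated arm or within the compared Vehicle arm differed by less than 13.5 times the counting variance. Other pairs were not compared.

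Genes named are the 12 with the smallest p in each direction outside the lung list, 13 genes of the TAM and PD1 pathways and of T cells, and up to 4 per list with the smallest p. Others, such as Lcn2, Cxcl1, Kit, Tpsab1 and Cd79a, were named after their values were seen. The members and gene lists were chosen with earlier results of these data known. Of 750 accessions, 727 matched the RefSeq gene table, 9 under another symbol. Summaries used Python 3.11.15, pandas 2.3.3, SciPy 1.17.1 and matplotlib 3.10.9.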

Additional observations from a re-analysis of the deposited data

Results flagged for a closer look

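Scaled counts of 13 groups of tumours held 1 value far from the rest of its arm, of 72 groups tested. Chance alone flags about 1 in 20 where values are normally distributed within an arm. The scaled counts were not log-transformed for these flags and their distribution was not tested, so that rate may not hold here. Treated tumour 3 accounted for 6: Camp at 836 against 72.2 to 110.2 in the other treated tumours, S100a8 at 20616 against 1452 to 2598, Mpo at 686 against 55.3 to 103, Elane at 433 against 31.3 to 62.6, Ctsg at 234 against 14.4 to 35.3 and Prg2 at 128.5 against 24.8 to 28.9. These 6 genes are members of overlapping groups in 1 tumour, so they are not independent of each other. Treated tumour 2 stood apart for Tfrc, at 411 against 165 to 196. Among Vehicle tumours, replicate 6 stood apart for Tfrc (961 against 424 to 569), Prg2 (15.3 against 5.54 to 7.88), Klrc1 (270.0 against 12 to 31.4) and the NK receptor gene Klra4 (56.9 against 13.8 to 22.1). Vehicle replicate 5 stood apart for Pdgfc (892 against 389 to 527), and Vehicle replicate 4 for the RNA-binding protein gene Ewsr1, at 529 below 845 to 935.

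The effect of both agents differed from the sum of the single-agent effects for 24 genes by edgeR's interaction test, all lower, and for 0 without TP-0903 replicate 3, the tumour with high liver transcripts.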

How the results depend on the processing

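Of 668 values of named genes under alternatives, 620 kept their direction and their side of the threshold, 15 came to pass it and 33 changed sign. Of 660 list medians under alternatives, 80 moved by more than 1 SD of the treated tumours, in 21 of 30 lists. The count of called genes, TP-0903+anti-PD1 against Vehicle without A799, was 8 with DESeq2 and 0 to 4 with each tumour left out. With only the 9 tumours it was 3 (Camp, Mpo and Cxcl12). Against Anti-PD1 it was 1 with DESeq2 and 0 to 0 with each tumour left out. Against TP-0903 the 30 calls became 14 with DESeq2, 16 to 30 with each tumour left out, and 0 with limma, without TP-0903 replicate 3, with the cartridge block and with both. The 24 interaction calls became 12 with the filter at 5 of 9 tumours, 8 with DESeq2, 20 to 25 with each tumour left out, and 0 under the same 4 settings. Genes whose arms do not overlap, treated higher, numbered 14 with TMM scaling, 15 with DESeq2 size factors, 8 with positive controls only, 9 with A799 kept and 18 to 64 with each tumour left out. Those lower numbered 19 with TMM scaling, 21 with DESeq2 size factors, 23 with positive controls only and 7 to 21 with each tumour left out. Fewer tumours make separation easier by construction. For the remaining shifts the cause was not tested.

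The median of the neutrophil-attracting chemokine list was 1.66 with the cartridge block, 1.28 with the title digit block and 1.66 with the cartridge block and TP-0903 replicate 3 left out. With the cartridge block the log2 fold of Camp was 6.19 ± 1.85, of S100a8 4.18 ± 1.79 and of Tfrc -1.19 ± 0.77. Those folds rested on treated replicate 1 and the Gemcitabine lanes, not on all 4 treated tumours. Ratios of library measures with each tumour left out ran from 0.462 to 0.642 for total counts, 0.493 to 0.648 for housekeeping genes, 0.769 to 0.853 for housekeeping over positive controls and 0.505 to 0.667 for negative controls, which gave 0.572 with A799 kept.

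Signs that changed were those of small log2 folds and of Klrc1. Klrc1 was 0.17 without Vehicle 6 (-1.83 to 0.17 with each tumour left out). Axl was 0.036 with the cartridge block, alone or with TP-0903 replicate 3 left out, and 0.068 with the title digit block (-0.24 to 0.040). Mertk was -0.10 with TMM, -0.10 with DESeq2 size factors, -0.28 with positive controls only and -0.43 with A799 kept (-0.17 to 0.28). Pdcd1 was 0.20 with the cartridge block, alone or with TP-0903 replicate 3 left out (-0.30 to 0.094). Cd274 was -0.064 in both of these. Pdcd1lg2 was -0.027 with TMM, -0.024 with DESeq2 size factors, -0.15 with positive controls only and -0.020 in both cartridge fits (-0.022 to 0.29). Cd4 was 0.87 in both cartridge fits (-0.46 to 0.038). Ifng was -0.13 with positive controls only and -0.031 with A799 kept (-0.042 to 0.30).

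No paired analysis was possible because replicate numbers were given in accession order and pair no tumours. Depth limited genes near background: 24 tested genes were at background in all 9 lanes, and 70 were not tested.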
